A study of Homo sapiens with 54 samples.

Results

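The IL-1 and IL-6 family cytokines described here were 10 of the 27470 genes measured in SUM1315 and MDA-MB-468 triple negative breast cancer cells, picked by gene symbol and not by their values. IL1A, IL1B, IL1RN, IL18, IL33 and IL36G belong to the IL-1 family, and IL6, LIF and IL11 belong to the IL-6 family. IL24 was in the set as well, although it is classed with the IL-20 subfamily of IL-10 related cytokines. In SUM1315 cells, OlaR cultures had more RNA of IL1A, IL1B, IL1RN, IL36G, IL11 and IL24 and less of IL33 than olaparib-treated parental cells. IL1A and IL1B fell with olaparib, and in OlaR cells they were under 2-fold higher than in untreated cells. IL1RN and IL36G had enough reads to be tested through OlaR libraries alone. The higher CDDP dose raised IL6 in parental SUM1315 cells with or without olaparib. In MDA-MB-468 cells only IL1RN and IL18 had enough reads to be tested, and IL1RN was lower in OlaR cells.

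The study asked how olaparib, a PARP inhibitor, and acquired resistance to it bear on the response to cisplatin (CDDP), a platinum drug that crosslinks DNA, in a BRCA1 mutant line (SUM1315) and a BRCA1 wild type line (MDA-MB-468). Each of 18 conditions had 3 libraries, 54 in all, in which reads were taken near the 3′ end of each transcript. Parental cells were untreated, treated overnight with olaparib (8 µM for SUM1315 and 3 µM for MDA-MB-468), treated with CDDP at a lower or a higher dose (for SUM1315 these were 2 and 4 µM, and MDA-MB-468 received 1 and 2.5 µM), or treated with olaparib and either CDDP dose. Olaparib resistant (OlaR) cells had been derived from each line by stepwise increases of olaparib, and were used as such or with either CDDP dose. All OlaR groups stayed in olaparib, at 25 µM for SUM1315 and 15 µM for MDA-MB-468, so there was no OlaR group without the drug and none at the dose given to parental cells. Whether an OlaR culture descended from 1 clone is not given in the sources used here, and the higher MDA-MB-468 dose is 2.5 µM in the library labels but 2 µM in the design text of the series.

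IL-1 family ligands bind receptors whose cytoplasmic domains recruit the adaptor MYD88 and IRAK kinases, which switch on NF-κB and MAP kinases. IL1A and IL1B share a receptor, IL1RN occupies that receptor without signalling, and IL1B and IL18 are released after cleavage by the inflammasome protease CASP1. IL-6 family ligands pair their own receptor with the shared subunit gp130 (encoded by IL6ST) and signal through JAK kinases and STAT3. In epithelial and stromal cells IL-1 is a known inducer of IL6 and of chemokines, and IL1A, IL6 and CXCL8 are known components of the secretions of damaged or senescent cells.

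Values are adjusted read counts, which are reads per gene that the authors had brought to 1 common library size with edgeR, and whole reads recovered from them are given for genes with few reads. Recovered depth was 4977284 to 7540920 reads in parental and 3446613 to 4665505 in OlaR SUM1315 libraries, and 5574767 to 9268140 in parental and 2070301 to 4676284 in OlaR MDA-MB-468 libraries. Changes are log2 fold changes of the value plus a pseudocount of 1 with their standard error (SE), tested with limma and adjusted by the Benjamini-Hochberg method over all genes tested, 13133 in SUM1315 and 13012 in MDA-MB-468. A gene is called where the adjusted p is at or under 0.05 and the fold change is at least 2, and for a difference between 2 changes (an interaction) where the adjusted p is at or under 0.05. The labels do not say that libraries came from separate cultures, so p-values measure the spread between these libraries. In such bulk RNA, fewer cells making a cytokine and less RNA per cell cannot be told apart.

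Each line was checked against cell type markers. SUM1315 libraries had 7930 to 13200 adjusted read counts of the mesenchymal marker VIM and at most 4.61 of the epithelial marker EPCAM, and MDA-MB-468 libraries had 2630 to 3790 of EPCAM. The other epithelial markers were mixed in SUM1315 libraries. CDH1 was at most 3.9 and KRT5 at most 28.4, but KRT8 was at 17.7 to 154 and KRT18 at 231 to 598. Of 4 leukocyte markers, which could mark other sources of cytokines, PTPRC, CD3E and CSF1R had a median of 0 in SUM1315 libraries with at most 8 reads in any of them. The other marker, CD14, did move with the conditions in SUM1315 cells, and its values are set beside the results below.

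Promoter sequences were looked at because some members, such as IL1A and IL1B, moved together in SUM1315 cells, while others, such as IL33 and IL18, did not. RefSeq promoters of GRCh38.p14 were matched for 8 of the 10 members, with 12 promoters between them, and not for IL18 and LIF. The 250 bases before each start were searched on both strands for an NF-κB consensus, for the AP-1 motif TGANTCA and for the cyclic AMP response element TGACGTCA, and on the gene's own strand for TATAAA. Of all 35116 promoters of this length, 9.96% held the NF-κB consensus, 6.57% the AP-1 motif, 1.65% the cyclic AMP response element and 6.8% TATAAA. These 4 promoters held matches and are shown 5′ to 3′ on the gene's strand with the matches in capitals, leaving out bases that GENCODE places in an exon of the gene. They are chr7:22726950-22727146 on the plus strand, chr2:112784494-112784743 on the minus strand, chr19:55370464-55370713 on the minus strand and chr2:113117721-113117892 on the plus strand.
IL6 promoter: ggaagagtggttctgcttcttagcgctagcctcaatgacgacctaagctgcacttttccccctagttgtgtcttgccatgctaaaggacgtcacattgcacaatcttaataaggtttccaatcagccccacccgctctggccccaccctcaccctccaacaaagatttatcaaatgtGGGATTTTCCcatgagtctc
IL1A promoter: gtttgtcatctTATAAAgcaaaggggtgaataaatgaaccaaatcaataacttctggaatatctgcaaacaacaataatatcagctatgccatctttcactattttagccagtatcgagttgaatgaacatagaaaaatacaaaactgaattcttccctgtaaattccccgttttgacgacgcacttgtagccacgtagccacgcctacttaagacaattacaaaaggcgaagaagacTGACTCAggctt
IL11 promoter: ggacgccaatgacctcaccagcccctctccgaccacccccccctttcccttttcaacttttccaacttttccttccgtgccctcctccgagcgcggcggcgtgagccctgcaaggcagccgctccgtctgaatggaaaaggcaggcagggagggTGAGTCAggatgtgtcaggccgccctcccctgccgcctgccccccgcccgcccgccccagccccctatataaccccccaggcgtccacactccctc
IL1RN promoter: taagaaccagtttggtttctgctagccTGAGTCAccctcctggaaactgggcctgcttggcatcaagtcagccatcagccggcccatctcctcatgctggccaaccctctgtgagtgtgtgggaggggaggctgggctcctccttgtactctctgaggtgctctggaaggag
IL6 had 1 match to the NF-κB consensus that begins 73 bases before its start, and was the only member with one in these windows. AP-1 motifs began 12 bases before the start of IL1A, 96 before that of IL11 and 223 before that of IL1RN, and a second start of IL1A, which lies downstream, had one more match, 55 bases before it. TATAAA began 239 bases before the start of IL1A shown here and 30 bases before a further start of IL1RN. The cyclic AMP response element was found in none, and none of the searched letters were in the windows of IL1B, IL36G, IL33 and IL24. A match describes the letters in the window and is not evidence that a factor binds there.

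All 10 members passed the filter on low values in SUM1315 cells, which asks for at least 10 adjusted read counts in at least 3 of the 27 libraries. IL1RN and IL36G passed it through OlaR libraries alone, so their differences from parental cells follow in part from the filter. Olaparib called 2 of the 10 members against untreated cells, both lower, where 9.35% of all genes tested were called. Of the members, 1 was called with 2 µM CDDP (8.79% of all genes) and 4 with 4 µM CDDP (15.4%), all higher. Added to olaparib, 2 µM CDDP called 0 members (0.495% of all genes), none with an unadjusted p under 0.05, and 4 µM CDDP called 2, both higher (1.32%). Olaparib added to 4 µM CDDP called 1 member, which was lower (2.56%).

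OlaR cells differed from olaparib-treated parental cells in 7 of the 10 members, 6 higher and 1 lower, where 16.6% of all genes were called. The 6 include IL1RN and IL36G, which were tested only because their OlaR libraries passed the filter. Against untreated parental cells, a comparison added after seeing the data, 5 members were called, 4 higher and 1 lower, beside 23% of all genes. Within OlaR cells, 2 µM CDDP called 0 members (0.533% of all genes), with 2 at an unadjusted p under 0.05, and 4 µM CDDP called 1, higher (3.82%). The change with 4 µM CDDP differed between OlaR and olaparib-treated parental cells for 0 members (6.4% of all genes), with IL6, IL1A and IL11 at an unadjusted p under 0.05, and it differed between cells with and without olaparib for 3 members (21.5%). The 3 counts of 0 were also 0 with edgeR and with DESeq2 on recovered reads. These comparisons share their control libraries, so their calls are not independent of each other.

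**Figure D1:**
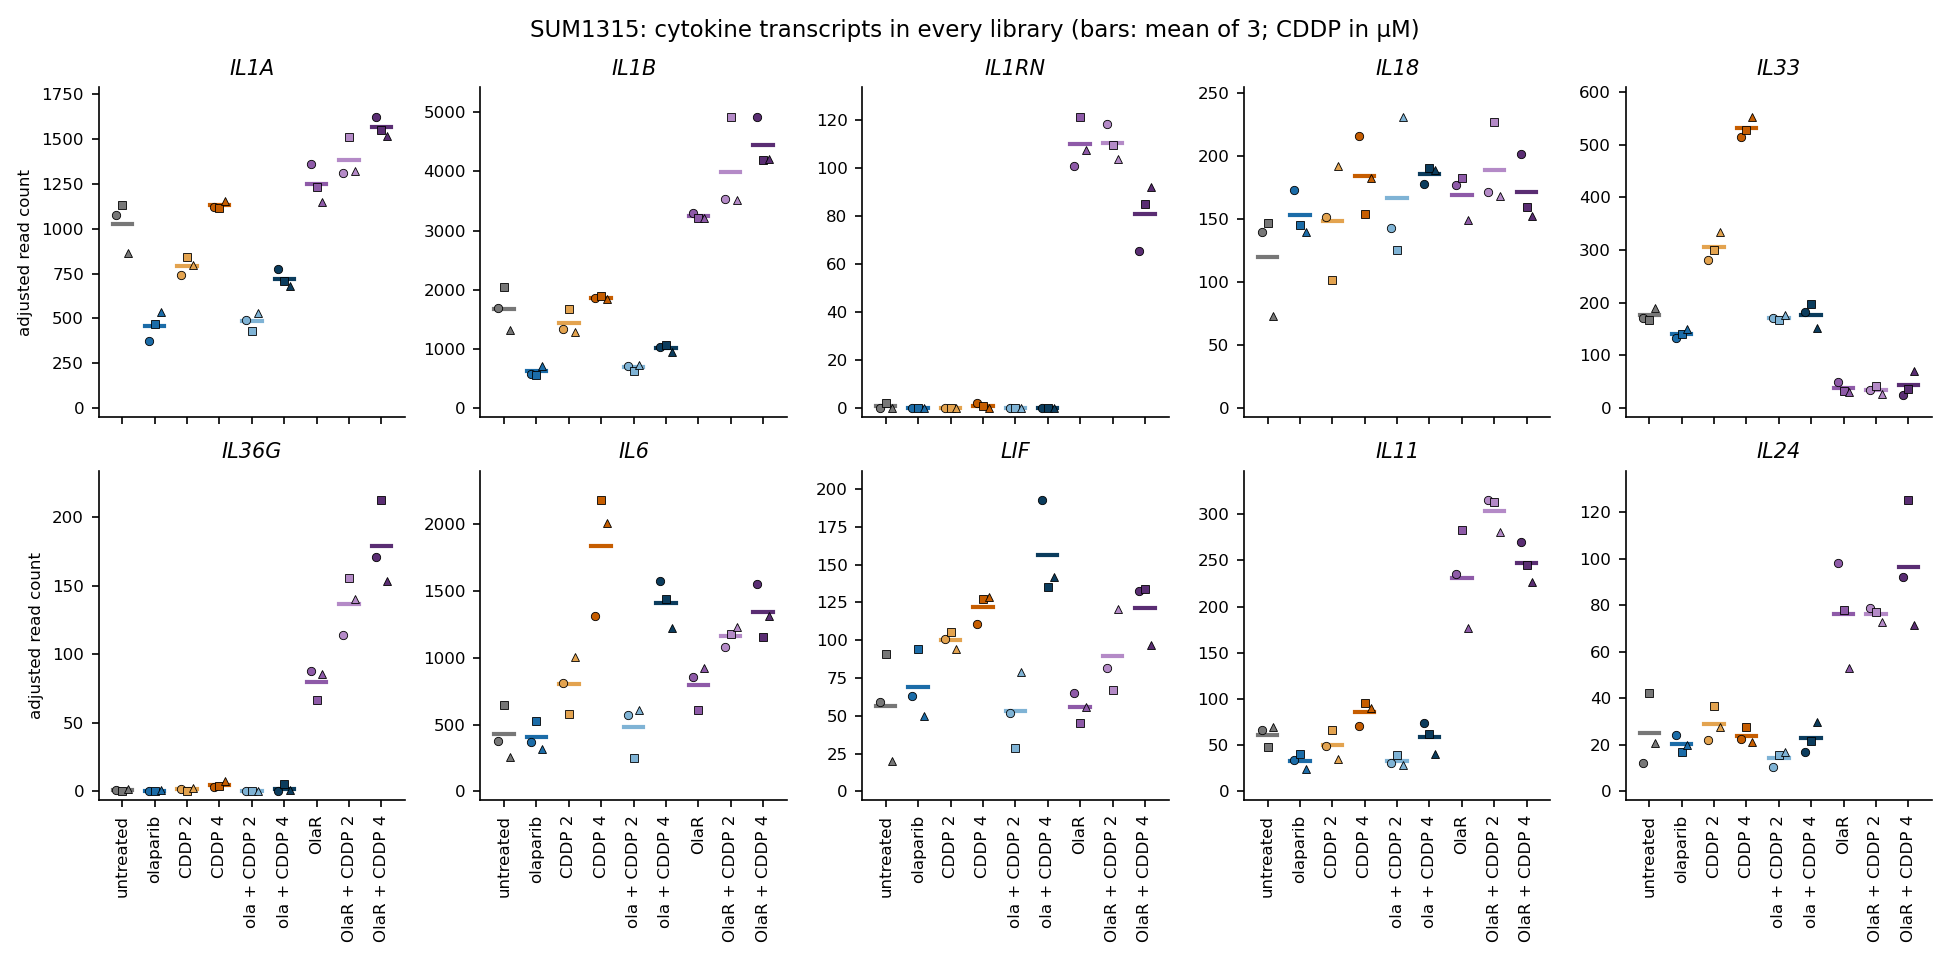
Adjusted read counts (vertical axis of each panel) of the 10 members in the 27 SUM1315 libraries, by condition on the horizontal axis, with points for libraries (circle, square and triangle for replicates 1, 2 and 3) and bars for the mean of 3. IL1RN and IL36G stood near 0 in parental libraries and at 65.6 to 121 and 66.6 to 213 in OlaR libraries, and IL33 was at its highest with 4 µM CDDP alone.

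IL1A and IL1B, the agonist ligands of the IL-1 receptor, fell with olaparib and were high in OlaR cells of SUM1315. IL1A (GRCh38 chromosome 2, 112773925 to 112784493, minus strand) had 1078, 1130 and 866 adjusted read counts in untreated libraries and 376, 466 and 535 with olaparib. All olaparib libraries lay below all untreated ones, and the log2 fold change was -1.16 (SE 0.11, limma adjusted p = 6.24e-10). IL1B (chromosome 2, 112829751 to 112836816, minus strand) had 1687, 2045 and 1311 adjusted read counts without and 579, 561 and 715 with olaparib. Again no libraries overlapped, with a log2 fold change of -1.43 (SE 0.13, limma adjusted p = 1.82e-10).

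With 2 µM CDDP alone IL1A was at 741.7 to 843.2 adjusted read counts, below all untreated libraries but by under 2-fold. IL1B, at 1281 to 1669 with that dose, overlapped the untreated libraries. With 4 µM CDDP alone IL1A was at 1120, 1117 and 1157 and IL1B at 1860, 1894 and 1838 adjusted read counts. Both groups overlapped the untreated libraries, with log2 fold changes of 0.15 (SE 0.11) and 0.17 (SE 0.13) that did not pass the test. In olaparib-treated cells the levels of both were higher with 4 µM CDDP. IL1A was at 775, 708 and 680.5 adjusted read counts with the combination, all above the olaparib libraries, and its log2 fold change of 0.66 (SE 0.11, limma adjusted p = 0.000168) was under 2-fold. IL1B was at 1038, 1072 and 946, also all above olaparib alone, with a log2 fold change of 0.73 (SE 0.13, limma adjusted p = 0.000327). The change with CDDP was larger with olaparib than without it by 0.51 (SE 0.16) for IL1A and by 0.55 (SE 0.18) for IL1B on the log2 scale, with limma adjusted p of 0.0183 and 0.0279. That of IL1A was lost without replicate 1 of the olaparib group (0.375), replicate 1 of the combination (0.459) or replicate 2 of the untreated group (0.436). That of IL1B was lost without any 1 of 8 of the 12 libraries, at 0.40 to 0.552.

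In OlaR cells IL1A was at 1363, 1232 and 1150 adjusted read counts and IL1B at 3303, 3207 and 3220. Every OlaR library was above every parental library treated with olaparib, and the log2 fold changes were 1.45 (SE 0.11, limma adjusted p = 1.7e-12) for IL1A and 2.40 (SE 0.13, limma adjusted p = 2.35e-16) for IL1B. Set against untreated parental libraries, which the OlaR libraries also exceeded, the log2 fold changes were 0.29 for IL1A (SE 0.11, limma adjusted p = 0.0273) and 0.97 for IL1B (SE 0.13, limma adjusted p = 1.26e-07), both under 2-fold. The size of the OlaR difference in these genes therefore depended on which parental group it was measured from. With 4 µM CDDP, OlaR libraries reached 1626, 1554 and 1516 for IL1A and 4922, 4191 and 4207 for IL1B. These were above the OlaR libraries without CDDP, by log2 fold changes of 0.33 (SE 0.11, limma adjusted p = 0.0391) and 0.45 (SE 0.13, limma adjusted p = 0.0152).

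IL1RN, the receptor antagonist, and IL36G, an IL-36 agonist known from epithelia, were near 0 in parental SUM1315 cells. They lie with IL1A and IL1B in the IL-1 gene cluster of chromosome 2, IL36G at 112973203 to 112985658 and IL1RN at 113099315 to 113134016, both on the plus strand. IL1RN had 0 reads in the 3 olaparib libraries, and at most 2 in any of the 18 parental libraries. In OlaR libraries it had 64, 71 and 67 reads, or 101, 121 and 107 adjusted read counts. Measured from a floor of 3 reads over the olaparib group, IL1RN was at least 118-fold higher in OlaR cells (limma adjusted p = 3.51e-12). From untreated cells, with 2 reads, the ratio was 167 (95% counting interval 45.6 to 1390, covering counting error only).

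IL36G had 1 read in all 3 olaparib libraries together and 57, 37 and 54 reads in OlaR libraries, a ratio of 260 with a 95% counting interval of 46 to 10300 (limma adjusted p = 2.59e-10). In adjusted read counts the OlaR libraries were at 87.7, 66.6 and 85.5, and with 4 µM CDDP at 171, 213 and 153. All 3 of the CDDP-treated OlaR libraries were above the untreated OlaR ones, but the log2 fold change of 1.15 (SE 0.57, limma adjusted p = 0.178) did not pass the test. On recovered reads, edgeR and DESeq2 both called it. In parental cells 4 µM CDDP gave 3, 4 and 8 reads of IL36G against 1, 0 and 2 in untreated cells, a ratio of 4.76 with a 95% counting interval of 1.35 to 25.7. This call (log2 fold change 1.58, SE 0.57, limma adjusted p = 0.0251) was lost without replicate 3 of the CDDP group (log2 fold change 1.27) or replicate 2 of the untreated group (1.16). It was also lost with a pseudocount of 4 (0.785), with no filter on low values and with only the groups compared in the fit.

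IL33, a nuclear alarmin released from damaged cells, and IL18, which acts with IL-12 to raise interferon gamma in lymphocytes, took other courses. IL33 (chromosome 9, 6215786 to 6257983, plus strand) had 172, 168 and 190.2 adjusted read counts in untreated libraries, 282, 299.7 and 335 with 2 µM CDDP and 516, 528 and 554 with 4 µM CDDP. The groups did not overlap, and the log2 fold change was 0.79 at the lower dose (SE 0.23, limma adjusted p = 0.00765), under 2-fold, and 1.59 at the higher dose (SE 0.23, limma adjusted p = 9.17e-07). With olaparib in addition, the 4 µM CDDP libraries were at 182, 197 and 153, below those with CDDP alone by a log2 fold change of -1.59 (SE 0.23, limma adjusted p = 1.09e-05). The change with CDDP was thus smaller in the presence of olaparib by 1.27 on the log2 scale (SE 0.32, interaction limma adjusted p = 0.00435), and this held without any 1 of the 12 libraries.

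Olaparib alone placed IL33 at 132, 139.7 and 151, all below the untreated libraries, without passing the test (log2 fold change -0.32, SE 0.23, limma adjusted p = 0.289). OlaR libraries had 49.2, 32.4 and 30.1 adjusted read counts, all below the olaparib-treated parental libraries by a log2 fold change of -1.92 (SE 0.23, limma adjusted p = 2.28e-08) and below untreated cells by -2.25 (SE 0.23, limma adjusted p = 5.57e-10). With 4 µM CDDP the OlaR libraries stood at 25.0, 36.1 and 70.4, which overlapped those without it. IL18 (chromosome 11, 112143253 to 112164096, minus strand) was measured at 72.7 to 231 adjusted read counts across the 27 libraries and was called in no comparison within SUM1315 cells. Its nearest approach was with 4 µM CDDP, at 216, 154 and 182 against 139.7, 147 and 72.7 in untreated cells (log2 fold change 0.67, SE 0.23, limma adjusted p = 0.0176), under 2-fold.

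IL6, the founding gp130 cytokine and an NF-κB target, rose with the higher CDDP dose in SUM1315 cells. IL6 (chromosome 7, 22725884 to 22732002, plus strand) had 379, 649 and 258 adjusted read counts in untreated libraries and 1312, 2180 and 2011 with 4 µM CDDP. The lowest CDDP library was above the highest untreated one despite the wide spread within both groups, and the log2 fold change was 2.17 (SE 0.27, limma adjusted p = 4.8e-08). Libraries with 2 µM CDDP had 814, 582 and 1009, overlapped the untreated ones and did not reach 2-fold (log2 fold change 0.97, SE 0.27, limma adjusted p = 0.0047).

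Olaparib alone did not move IL6 past the test, at 369.7, 527 and 317 adjusted read counts (log2 fold change -0.01, SE 0.27). Added to olaparib, 4 µM CDDP gave 1571, 1440 and 1219, above all olaparib libraries by a log2 fold change of 1.82 (SE 0.27, limma adjusted p = 1.74e-05), while 2 µM CDDP gave 571, 253 and 611, overlapping olaparib alone. OlaR cells had 856, 611 and 924, higher than the olaparib libraries by a log2 fold change of 0.99 (SE 0.27, limma adjusted p = 0.00259), just under 2-fold, and 1551, 1153 and 1312 with 4 µM CDDP. In OlaR cells the change with 4 µM CDDP was 0.76 (SE 0.27, limma adjusted p = 0.045), under 2-fold with no overlap. The difference of -1.06 (SE 0.37) from the change in olaparib-treated parental cells did not pass the test (limma adjusted p = 0.0806).

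LIF, a gp130 ligand that acts through LIFR, was called with CDDP in each background, but each call was lost in some fits that left out 1 library. LIF (chromosome 22, 30240453 to 30246759, minus strand) had 59.4, 90.7 and 19.98 adjusted read counts in untreated libraries and 111, 127 and 128 with 4 µM CDDP, without overlap (log2 fold change 1.33, SE 0.34, limma adjusted p = 0.00205). This call was lost with only the groups compared in the fit (limma adjusted p = 0.0503). Without replicate 3 of the untreated group, the lowest, the log2 fold change was 0.72 and no longer called, and the call with 2 µM CDDP (1.05, SE 0.34, limma adjusted p = 0.0177) became 0.44 and was lost too. That call was lost as well without replicate 2 of its CDDP group (1.01), with edgeR (0.79) and with DESeq2 (0.78). With olaparib, LIF was at 63.4, 94 and 49.96 and rose to 193, 135 and 142 with 4 µM CDDP, by a log2 fold change of 1.20 (SE 0.34, limma adjusted p = 0.0257). In OlaR cells it was at 65.4, 45.5 and 55.9 and rose to 132, 134 and 97.0, by 1.11 (SE 0.34, limma adjusted p = 0.024). No libraries overlapped in either, but each of these calls was lost when 1 library was left out in 4 of 6 cases, with log2 fold changes of 0.99 to 1.26 and 0.97 to 1.12 in those cases.

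IL11, a gp130 ligand acting through IL11RA, and IL24, which acts through IL20RA, IL20RB and IL22RA1, were higher in OlaR cells. IL11 (chromosome 19, 55364382 to 55370463, minus strand) had 33.7, 40.5 and 24.0 adjusted read counts with olaparib and 235, 283 and 177 in OlaR libraries, a log2 fold change of 2.79 (SE 0.24, limma adjusted p = 2.32e-11). Untreated parental libraries had 66.7, 47.8 and 69.2, above the olaparib libraries (olaparib log2 fold change -0.90, SE 0.24, limma adjusted p = 0.00364, under 2-fold) and below the OlaR ones by 1.89 (SE 0.24, limma adjusted p = 4.79e-08). Among the 3 groups without CDDP, OlaR was the highest. With CDDP, OlaR libraries had 315, 314 and 281 at 2 µM and 270, 245 and 227 at 4 µM, and both overlapped OlaR cells without it.

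IL24 (chromosome 1, 206897443 to 206904139, plus strand) had 24.4, 16.8 and 19.99 adjusted read counts with olaparib, 12.1, 42.2 and 20.7 without treatment, and 98.0, 77.9 and 52.9 in OlaR libraries. The OlaR libraries were above both parental groups, with log2 fold changes of 1.82 (SE 0.34, limma adjusted p = 4.61e-05) and 1.70 (SE 0.34, limma adjusted p = 8.36e-05). No CDDP comparison called IL24 in SUM1315 cells. All 7 OlaR calls in SUM1315 cells were kept in every fit that left out 1 library. For IL1RN and IL36G this adds no support, because they passed the filter through OlaR libraries alone.

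**Figure D2:**
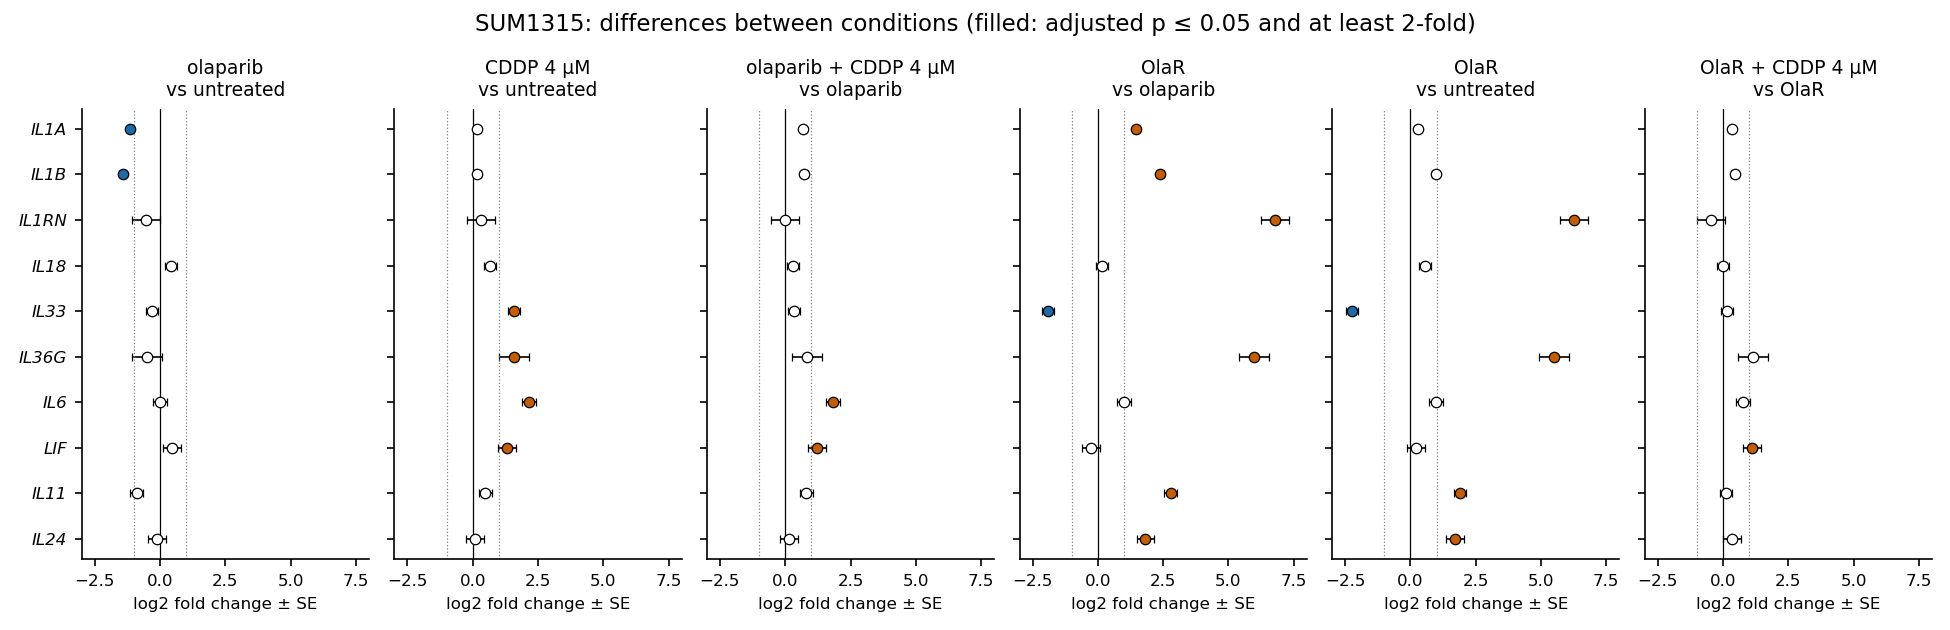
Log2 fold changes (horizontal axis, bars for 1 SE) of the 10 members in 6 comparisons of SUM1315 cells, with filled points for called members. The OlaR panel holds the largest changes, 6.79 for IL1RN and 5.99 for IL36G, both against groups with at most 1 read.

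CD14, part of the endotoxin receptor and a monocyte marker, moved in the same libraries. Its mean was 423 ± 31.6 adjusted read counts (SD, n = 3) in untreated SUM1315 cells, 67.0 ± 4.75 with olaparib, 136 ± 24.6 with 4 µM CDDP and 24.9 ± 4.58 in OlaR cells. The sum of the 4 leukocyte markers ranged from 404 to 461 in untreated, 62.5 to 73.9 in olaparib and 21.6 to 31.6 in OlaR libraries. PTPRC and CD3E, which define leukocytes and T cells, had at most 8 and 1 reads in any SUM1315 library, so the sum was almost all CD14. The endothelial sum, nearly all PECAM1 with CDH5 at 0 or 1 read, ranged from 118 to 195 in untreated, 134 to 164 in olaparib and 45.0 to 71.7 in OlaR libraries. The part of these markers in the cytokine differences was not tested.

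Receptors and signalling genes were taken from lists chosen with earlier results of these data known, and are given as counts. In the OlaR comparison 16.6% of all genes were called, 987 higher and 1190 lower, against which each count of these lists has to be read. Of 11 IL-1 family receptors and adaptors tested in SUM1315 cells, 1 was higher and 1 lower in OlaR than in olaparib-treated parental cells, a share near that of all genes, with a median log2 fold change of -0.12 against -0.05 over all genes. The decoy receptor IL1R2 was at 43.2 ± 8.65 adjusted read counts in OlaR and 2.79 ± 1.09 in olaparib-treated cells (SD, n = 3; log2 fold change 3.57, SE 0.53), and the co-receptor IL1RAP was lower (-1.05, SE 0.18). The signalling receptor IL1R1 was at 455 ± 14.3 and 464 ± 53.9 (log2 fold change -0.02, SE 0.14). Olaparib alone called 4 of these genes, beside 9.35% of all genes, with MYD88 higher (1.32, SE 0.23) and IL1R2, IL18R1 and IRAK1 lower. Of 4 inflammasome genes tested, CASP1 (-1.81, SE 0.18) and CASP4 (-1.65, SE 0.16) were lower in OlaR cells.

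Of 15 IL-6 family receptor and JAK-STAT genes, 0 were higher and 4 lower in OlaR SUM1315 cells, beside the 16.6% of all genes called, with a median log2 fold change of -0.50. The 4 lower genes were JAK2 (-3.17, SE 0.25), the feedback inhibitor SOCS1 (-2.25, SE 0.33), PIAS3 (-1.14, SE 0.29) and LIFR (-1.12, SE 0.12). Against untreated cells 1 was higher, SOCS3 (1.14, SE 0.225), beside 23% of all genes called. There 2 were lower, JAK2 (-2.92, SE 0.245) and IL11RA (-1.365, SE 0.348). SOCS1 was also called higher with olaparib (1.92, SE 0.33) and with 4 µM CDDP (1.73, SE 0.33) in parental cells, and against untreated cells it was not called in OlaR cells. IL11RA, the receptor of IL11, was at 98.9 ± 21.8 adjusted read counts in untreated cells and 21.4 ± 7.01 with 4 µM CDDP (SD, n = 3; log2 fold change -2.19, SE 0.35). In the list of IL-20 subfamily ligands and IL-24 receptors, all 5 genes were tested, and IL20 (3.18, SE 0.24) and IL19 (1.04, SE 0.15) were higher and IL20RB (-1.15, SE 0.13) and IL20RA lower in OlaR cells. IL20RA had 0.506 ± 0.771 adjusted read counts in OlaR and 9.23 ± 4.89 in olaparib-treated cells (SD, n = 3). IL20 and IL19 are relatives of IL24 and share with it the receptor made of IL20RA and IL20RB.

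Of 9 STAT3 and acute phase targets tested, 4 were higher and 1 lower in OlaR SUM1315 cells, beside 16.6% of all genes. LCN2, an iron-scavenging acute phase protein, was at 622 ± 64.9 against 52.0 ± 11.5 adjusted read counts (SD, n = 3; log2 fold change 3.57, SE 0.18), and PIM1 (1.42, SE 0.30) and SAA1 (1.36, SE 0.10) were higher too. TIMP1, a metalloproteinase inhibitor, was lower (-1.35, SE 0.09). Of the other ligands of these families, CLCF1 passed the filter in both lines and EBI3 in SUM1315 cells. The remaining 9 were not tested in either line, with at most 11 reads over the 27 SUM1315 libraries and at most 36 over the 27 MDA-MB-468 libraries.

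NF-κB targets raised by IL-1, with 11 of 11 tested in SUM1315 cells, were called higher with 4 µM CDDP in part of the list. In cells without olaparib 6 were higher and 0 lower beside 15.4% of all genes called, with a median log2 fold change of 1.08 where the median over all genes was -0.0031. Added to olaparib this dose raised 8 and lowered 0 beside 1.32% (median 1.35), and in OlaR cells it raised 3 and lowered 0 beside 3.82% (median 0.57). With 2 µM CDDP 2 were called, both higher, in cells without olaparib (8.79% of all genes, median 0.59), and 0 were called on olaparib (0.495%, median 0.38) or in OlaR cells (0.533%, median 0.38). The largest changes with CDDP alone were those of the growth factor CSF2 (3.38, SE 0.63) and the chemokines CXCL1 (2.73, SE 0.11) and CCL20 (1.98, SE 0.28). CXCL1 was at 577 ± 142 adjusted read counts in untreated cells and 3743 ± 262 with 4 µM CDDP, and at 1117 ± 45.6 in OlaR cells and 2251 ± 152 with CDDP added (SD, n = 3). For 6 of the 11 the change with CDDP was smaller in OlaR than in olaparib-treated parental cells by the interaction test, which called 6.4% of all genes (579 lower and 262 higher), the largest differences being those of CXCL8 (-1.33, SE 0.21), CXCL1 (-1.26, SE 0.16) and PTGS2 (-0.85, SE 0.13).

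Without CDDP, 3 genes of the list were higher and 1 lower in OlaR cells, beside 16.6% of all genes, with CSF2 (3.00, SE 0.63), CXCL8 (2.31, SE 0.15) and CXCL1 (1.75, SE 0.11) higher and CCL20 (-1.40, SE 0.28) lower than with olaparib. Against untreated cells only CSF2 (2.16, SE 0.628) was higher and only BIRC3 (-1.06, SE 0.125) lower, beside 23% of all genes. The median log2 fold change of the list was then -0.12, and CXCL8, CXCL1 and CCL20 were not called. Olaparib alone called CCL20 higher (1.32, SE 0.28) and CSF3 (-1.53, SE 0.09) and CXCL8 (-1.49, SE 0.15) lower, beside 9.35% of all genes. CXCL8 thus had the course of IL1A and IL1B, lower with olaparib and high in OlaR cells, at 4193 ± 597 in untreated, 1497 ± 279 in olaparib-treated and 7364 ± 765 adjusted read counts in OlaR cells (SD, n = 3).

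**Figure D3:**
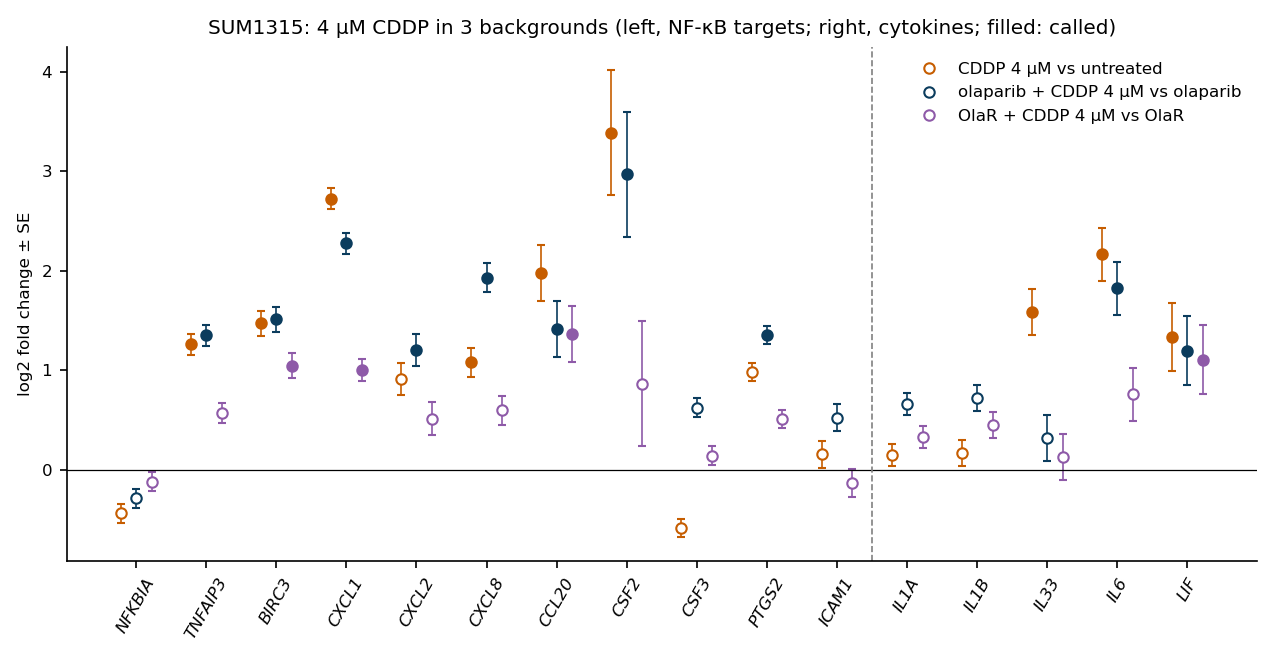
Log2 fold changes with 4 µM CDDP (vertical axis, bars for 1 SE) of 11 NF-κB targets and 5 of the cytokines (horizontal axis) in untreated parental, olaparib-treated parental and OlaR SUM1315 cells, with filled points for called genes. CXCL1 changed by 2.73, 2.27 and 1.01 in the 3 backgrounds and IL6 by 2.17, 1.82 and 0.76.

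Genes whose condition means followed those of a member most closely were picked by Pearson correlation over the 9 SUM1315 conditions, which is a description over shared libraries. For IL1A they were EIF6 and NAA25 (r = 0.985 for each), and for IL1B DLC1 (0.987) and NAA25 (0.985). PI3 (0.991) and BZW2 (0.989) were nearest to IL33, NCKIPSD (0.971) and IGHMBP2 (0.96) to IL6, and SUGT1 (0.934) and MKRN2 (0.933) to LIF. Of the other members that were high in OlaR cells, IL1RN (0.993) and IL36G (0.99) shared AKAP12. TGFBR1 was shared by IL36G (0.994), IL11 (0.988) and IL24 (0.985). MET (0.993), HES7 (0.991) and TMEM199 (0.992) were the other genes nearest to IL1RN, IL11 and IL24. Among the members themselves, r was 0.975 between IL1A and IL1B, 0.984 between IL36G and IL11, 0.833 between IL6 and LIF and -0.878 between IL1RN and IL33.

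In MDA-MB-468 cells 2 of the 10 members passed the filter, IL1RN and IL18. The other 8 had at most 14 reads in any of the 27 libraries, and IL36G had 0 in all of them. Neither IL1RN nor IL18 was called with olaparib (1.74% of all genes), 1 µM CDDP (1.83%), 2.5 µM CDDP (2.59%), either dose added to olaparib (0.177% and 1.91%), olaparib added to 2.5 µM CDDP (0.438%), either dose in OlaR cells (0.392% and 2.39%) or in the CDDP interaction tests for OlaR (15%) and olaparib (20.2%). Unadjusted p-values under 0.05 were found for both genes with 2.5 µM CDDP, for IL1RN with olaparib and with 1 µM CDDP, and for IL18 with 2.5 µM CDDP on olaparib and with either dose in OlaR cells. On recovered reads edgeR and DESeq2 called 0 in all 10 of these comparisons. OlaR cells had 1 of the 2 called, IL1RN, which was lower, beside 14.3% of all genes, and the same held against untreated cells, beside 15%.

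IL1RN in MDA-MB-468 cells had 48.9, 25.4 and 40.4 adjusted read counts with olaparib, 31.9, 16.3 and 19.4 without treatment, and 10.7, 10.9 and 7.49 in OlaR libraries. The OlaR libraries were below both parental groups, with log2 fold changes of -1.84 (SE 0.34, limma adjusted p = 6.53e-06) from olaparib and -1.10 (SE 0.34, limma adjusted p = 0.00482) from untreated cells. The second of these calls was lost without replicate 3 of the OlaR group (-0.94) or replicate 1 of the untreated group (-0.83). With 2.5 µM CDDP, IL1RN was at 48.9, 43.5 and 34.2, above all untreated libraries but under 2-fold (0.92, SE 0.34, limma adjusted p = 0.0369). The genes nearest to IL1RN over the 9 MDA-MB-468 conditions were SMAGP (r = 0.997) and CORO1B (0.993).

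IL18 had 73.5, 57.3 and 56.8 adjusted read counts with olaparib and 44.8, 34.5 and 29.6 in OlaR MDA-MB-468 libraries, without overlap but under 2-fold (log2 fold change -0.78, SE 0.22, limma adjusted p = 0.00249). Adding 2.5 µM CDDP to olaparib gave 121, 94.1 and 78.5, all above olaparib alone (0.63, SE 0.22, limma adjusted p = 0.0308), also under 2-fold. CD14 and the leukocyte sum moved in these libraries too, with sums of 54.4 to 86.6 in untreated, 23.9 to 41.5 in olaparib and 3.92 to 10.7 in OlaR libraries, and their part was not tested.

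**Figure D4:**
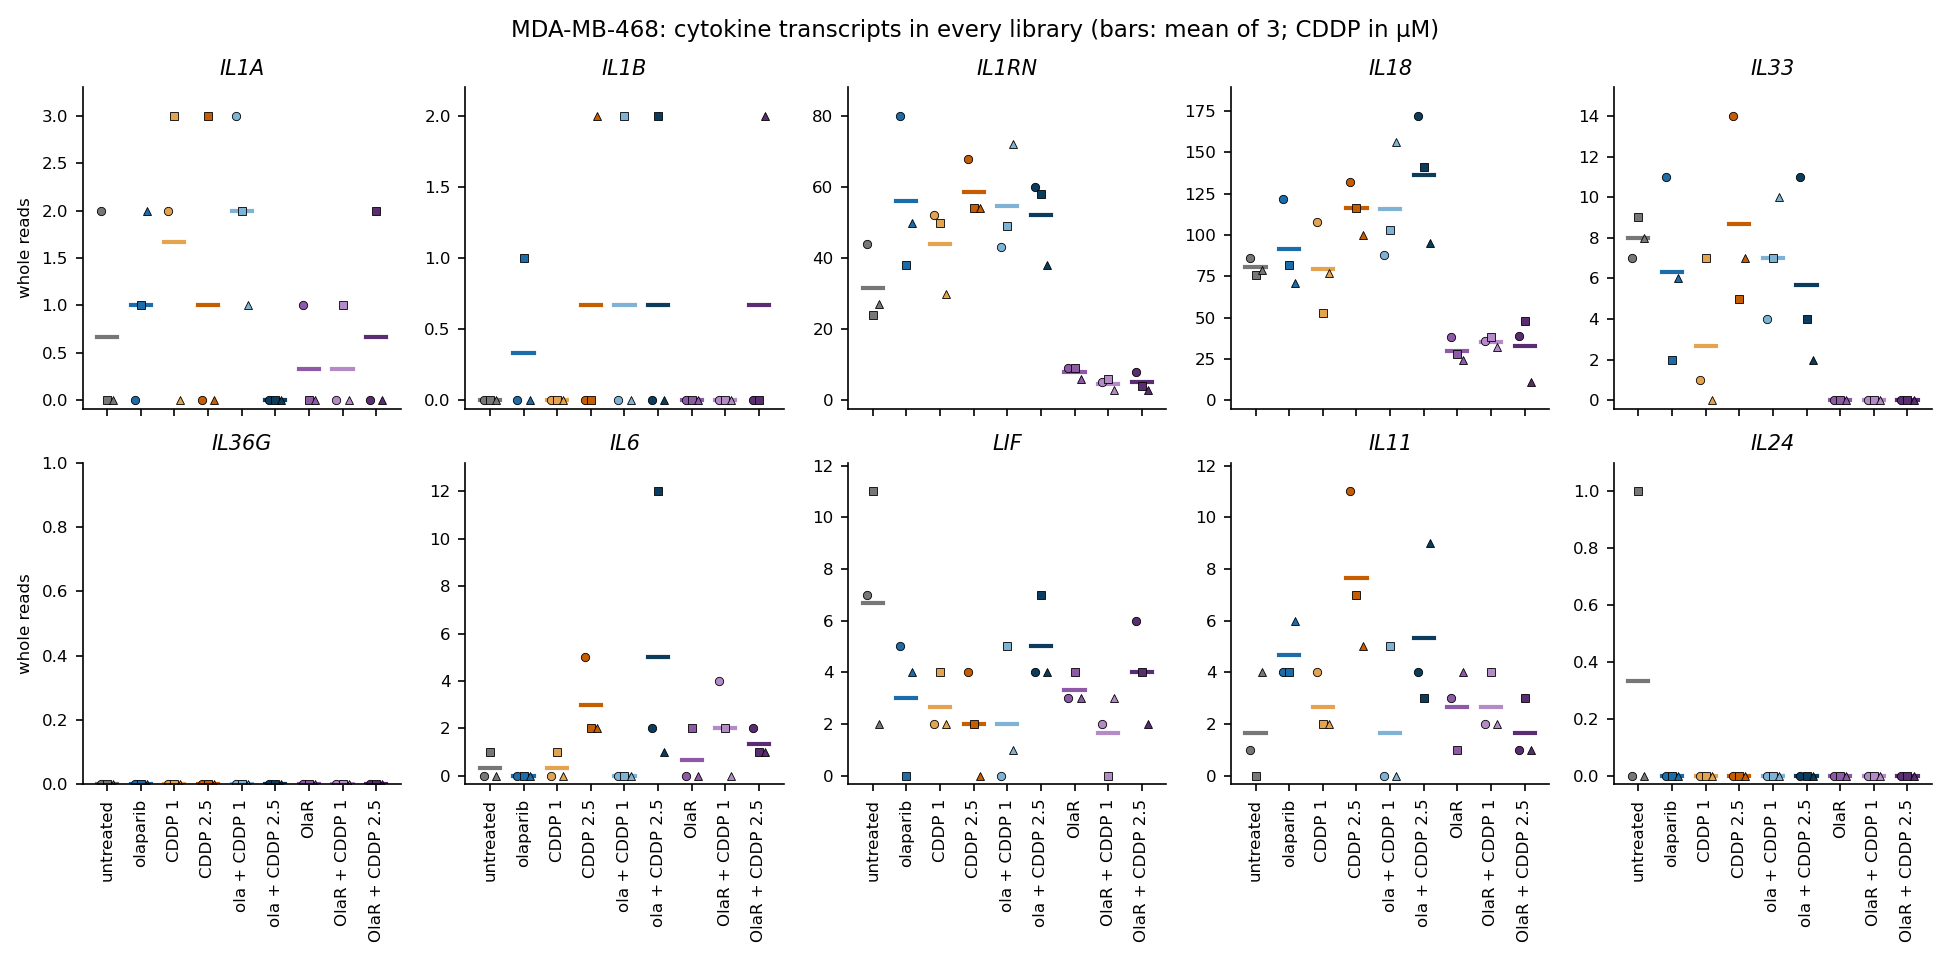
Whole reads (vertical axis of each panel) of the 10 members in the 27 MDA-MB-468 libraries, by condition on the horizontal axis, with points for libraries and bars for the mean of 3. IL33 had 0 reads in all 9 OlaR libraries and 0 to 14 in parental libraries, and OlaR libraries were the shallower ones.

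Among members with few reads in MDA-MB-468 cells, IL33 had 7, 9 and 8 reads in untreated and 11, 2 and 6 in olaparib libraries, and 0 in all 9 OlaR libraries. Measured from a floor of 3 reads over the OlaR group, IL33 was at least 3.6-fold lower in OlaR than in olaparib-treated cells and at least 4.71-fold lower than in untreated cells, and it was not tested by limma. IL11 had 23 reads over the 3 libraries with 2.5 µM CDDP and 5 in untreated ones, a ratio of 4.62 (95% counting interval 1.72 to 15.6). LIF had 6 and 20, a ratio of 0.302 (0.0991 to 0.779). These intervals leave out the spread between libraries, and in adjusted read counts the libraries of the groups overlapped for IL11 and LIF.

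IL6 had 9 reads with 2.5 µM CDDP and 1 in untreated MDA-MB-468 cells (ratio 9.05, 95% counting interval 1.25 to 397). With olaparib in addition it had 15 reads against 0 with olaparib alone, at least 5.27-fold higher from the floor, but 12 of the 15 were in replicate 2. IL24 had 1 read over all 27 libraries, IL1B at most 2 reads and IL1A at most 3 in any library, so no difference of these genes was detectable at this depth. Of 5 NF-κB targets tested in this line, BIRC3 (1.56, SE 0.26), TNFAIP3 (1.37, SE 0.39) and CXCL8 were higher in OlaR than in olaparib-treated cells and 0 were lower, beside 14.3% of all genes (928 higher and 927 lower). CXCL8 stood at 7.28 ± 4.08 against 0.697 ± 1.21 adjusted read counts (SD, n = 3). Of 10 IL-1 receptor and adaptor genes 0 were higher and 1 was lower, TOLLIP (-2.02, SE 0.14), an inhibitor of IL-1 signalling.

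The lines were compared by the difference between their changes, in a fit of all 54 libraries and 14460 genes, with each line at its own doses. Libraries were multiplexed for sequencing in batches of 27, which is also the number per line, but the make-up of each batch is not given in the sources used here. Line and batch may thus not be separable, and cytokine levels were not compared between lines. For the higher CDDP dose 2 members differed, LIF and IL36G, both with the more positive change in SUM1315 cells, where 27.5% of all genes differed. LIF rose by 1.33 in SUM1315 cells. The rest of its difference was a fall in MDA-MB-468 cells from 20 to 6 reads, with overlap, in a line where LIF did not pass the filter. IL36G had 0 reads in these MDA-MB-468 groups. The differences were 2.46 for LIF (SE 0.80, limma adjusted p = 0.0169) and 1.58 for IL36G (SE 0.61, limma adjusted p = 0.0484), and that of IL33 was 1.59 (SE 0.65, limma adjusted p = 0.0615). The call of IL36G was lost without any 1 of 10 of the 12 libraries, at 1.16 to 1.69. That of LIF was lost without replicate 3 of the untreated SUM1315 group (1.86), replicate 3 of the MDA-MB-468 CDDP group (1.90) or replicate 2 of the untreated MDA-MB-468 group (1.98).

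For OlaR against olaparib-treated parental cells 7 members differed between lines, each with the higher value in SUM1315 cells, beside 41.7% of all genes. IL1RN had the largest difference, 8.63 on the log2 scale (SE 0.50, limma adjusted p = 9.57e-19), since it was higher in OlaR cells of SUM1315 and lower in those of MDA-MB-468. IL36G differed by 5.99, IL11 by 2.84, IL1B by 2.67, IL24 by 1.82, IL1A by 1.796 and IL18 by 0.93. The call of IL1A was lost without replicate 3 of the MDA-MB-468 olaparib group (1.44), and that of IL18 without replicate 1 of that group (0.81) or replicate 3 of the MDA-MB-468 OlaR group (0.79). For IL36G, IL11, IL1B, IL24 and IL1A the MDA-MB-468 libraries compared had at most 6 reads each, so these differences are those of SUM1315 cells set against a gene with almost no reads. These genes passed the filter of this fit through SUM1315 libraries alone, and IL36G through OlaR libraries of that line alone. The count of members with the higher value in SUM1315 cells therefore follows in part from the filter.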

How the data were processed

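QuantSeq 3′ libraries had been sequenced from both lines, 3 for each of 18 conditions, and groups follow the sample labels. Per the study's methods and the submitters' processing notes, the authors demultiplexed with CASAVA 1.8.2, aligned to hg38 and adjusted read counts with edgeR. FastQC, STAR and HTSeq are named as well. The deposited signal values are reads per gene that the authors adjusted to a common library size, without length scaling. From the values, that adjustment was made within each condition. Whole reads were recovered by inverting it, and 1483380 of 1483380 values were matched within 0.1 read (largest difference 0.0977). Tables holding the authors' log2 fold changes, p-values and false discovery rates against untreated parental cells were left out.

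Values were tested in R 4.3.3 with limma 3.58.1 on log2(value + 1), within each line over its 27 libraries and 9 conditions, and between lines over all 54. Genes with at least 10 in at least 3 libraries were kept. Adding 1 understates the fold change of genes with few reads. The read count tests were edgeR 4.0.16 and DESeq2 1.42.0, as alternatives. OlaR cells were set against olaparib-treated parental cells, and against untreated ones as a comparison added after seeing the data. Counting intervals are 95% exact binomial intervals, and floors are 3 reads over a group. The inversion that recovers reads and the limma fit were tested on simulated data, and the other steps were not. Libraries of the same condition were never closer than counting error allows (smallest ratio of chi-square to its degrees of freedom 1.6). Each was counted as 1 sample, although this ratio cannot show whether libraries came from separate cultures.

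The members and gene lists were chosen with earlier results of these data known. All 10 members are named in the text. Of each list, up to 3 called genes with the largest change are named, and further genes were chosen after their values were seen. Similar genes are the 2 with the highest Pearson correlation among genes with a mean of at least 50. Reads near 3′ ends may miss a transcript that ends elsewhere. A marker chosen for the leukocyte list is not reported here.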

Additional observations from a re-analysis of the deposited data

Results flagged for a closer look

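These differences between changes passed the interaction test of limma at a Benjamini-Hochberg adjusted p at or under 0.05, and are given as values. In SUM1315 cells the change with 4 µM CDDP was larger with olaparib than without it for IL1A by 0.511 and for IL1B by 0.553 on the log2 scale, and differed by -1.267 for IL33. Between lines, the change with the higher CDDP dose was more positive in SUM1315 than in MDA-MB-468 cells for IL36G by 1.581 and for LIF by 2.465. IL36G had few reads in parental SUM1315 cells and 0 in MDA-MB-468 cells. LIF had few reads in MDA-MB-468 cells, where it was lower with CDDP. The difference of OlaR from olaparib-treated parental cells was higher in SUM1315 cells for IL1A by 1.796, IL1B by 2.671, IL1RN by 8.63, IL18 by 0.926, IL36G by 5.995, IL11 by 2.838 and IL24 by 1.823. Of these genes, IL1A, IL1B, IL36G, IL11 and IL24 passed the filter through SUM1315 libraries alone, so their presence here follows in part from the filter. Groups had 3 libraries each, too few for a check of single libraries that stand apart.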

How the results depend on the processing

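Of 656 alternatives to the 37 called member results, 578 kept the call, 78 kept the direction but lost the call and 0 reversed. Part of these outcomes was fixed in advance. The settings that only change the fold limit reuse the main fit, so they cannot reverse a direction, and dropping the limit cannot lose a call. For interactions neither of them can change the call. Kept OlaR calls of IL1RN and IL36G in SUM1315 cells follow in part from the filter. Counts of members called moved by over 1.5 times in 38 of 278 alternatives that kept all libraries, over 26 comparisons. In SUM1315 cells, 2 µM CDDP called 0 members with a pseudocount of 4, with only the groups compared, with edgeR and with DESeq2, against 1. CDDP at 4 µM in OlaR cells called 2 with those same settings, against 1, and 0 with no filter. CDDP at 4 µM on olaparib called 1 with no filter, against 2. With only the groups compared, 4 µM CDDP called 2 (against 4), CDDP by OlaR 1 (against 0) and CDDP by olaparib 1 (against 3). With no limit on the fold change, SUM1315 counts were 4 for 2 µM CDDP, 5 for 4 µM CDDP on olaparib, 3 for olaparib on 4 µM CDDP, 9 for OlaR against untreated cells and 4 for 4 µM CDDP in OlaR cells. With a log2 fold change of at least 2 they were 0 for olaparib, 2 µM CDDP, 4 µM CDDP on olaparib, olaparib on 4 µM CDDP and 4 µM CDDP in OlaR cells, 1 for 4 µM CDDP, 4 for OlaR and 3 for OlaR against untreated cells.

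In MDA-MB-468 cells OlaR against untreated cells called 0 with a pseudocount of 4 and 2 with no filter, and OlaR against olaparib called 2 with no filter. With no limit on the fold change, 2.5 µM CDDP called 1, the same dose on olaparib 1, and both OlaR comparisons 2. With a log2 fold change of at least 2 both OlaR comparisons called 0. Between lines the higher CDDP dose called 1 with a pseudocount of 0.5, with no filter and with median-ratio size factors, against 2. A stricter filter (mean of at least 20) moved no count. The cause was not tested in any of these.

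Leaving out 1 library moved 27 of 192 counts. In SUM1315 cells the counts ranged from 0 to 1 for 4 µM CDDP in OlaR cells, 0 to 2 for 2 µM CDDP, 1 to 2 for olaparib on 4 µM CDDP, 1 to 3 for CDDP by olaparib and 1 to 2 for 4 µM CDDP on olaparib. In MDA-MB-468 cells they ranged from 0 to 1 for OlaR against untreated cells, for 2.5 µM CDDP and for olaparib, and between lines from 0 to 2 for the higher CDDP dose. The SUM1315 OlaR count ranged from 7 to 8.

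Replicate numbers did not pair the samples. Correlations of deviations between same-numbered libraries were -0.098 to 0.163 in SUM1315 cells, with 4 of 108 pairs over 0.1, and -0.047 to 0.043 in MDA-MB-468 cells, with 0 of 108. With the replicate block, SUM1315 OlaR cells had 7 members called and MDA-MB-468 OlaR cells 1, and the block moved no count. Depth limits IL1RN and IL36G in parental SUM1315 cells and 8 members in MDA-MB-468 cells, whose OlaR libraries were also the shallower ones.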
